A study of Homo sapiens with 3 samples.

Results

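The 3 RUNX genes and CBFB, which together encode the core-binding factor, were examined in HCC1599, a cell line established from a triple-negative breast cancer. The members were the 4 named genes RUNX1, RUNX2, RUNX3 and CBFB, all of which were found among the 19974 protein-coding genes of the RefSeq table used. They are given by name, with no threshold on a measured value. The series held 3 samples of these cells: chromatin precipitated with an antibody to H3K27ac (acetylation of histone H3 at lysine 27, found at active promoters and enhancers), chromatin precipitated with an antibody to H3K4me3 (trimethylation at lysine 4, found at promoters), and an input without antibody. All 3 came from the same line with no treatment given in the labels; the title of the series calls the cells MARCO-TST positive. Each mark was represented by 1 library, so there is no replicate check and no p-value, and every value below is a description of these libraries. The deposited data are lists of peaks, intervals in which the authors' caller found more reads than expected, each with a score. The H3K4me3 list held 32043 usable peaks with a median width of 1667 bp and the H3K27ac list 72894 with a median of 865 bp; their scores started at 30 and piled up at 3100, which was the score of 33.4% of the H3K4me3 and 3.50% of the H3K27ac peaks. Read depth is unknown here, so that a place without a peak is a place where none was called.

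RUNX proteins bind DNA through the Runt domain and act as activators or repressors according to their partners, and CBFB is the shared beta subunit that does not bind DNA itself but strengthens the binding of each RUNX protein. RUNX1 is required for definitive blood stem cells and is also expressed in mammary epithelium, RUNX2 directs osteoblast formation, and RUNX3 acts in T cells, sensory neurons and some epithelia; RUNX1 and CBFB are mutated in some breast cancers. Each RUNX gene is read from a distal promoter, often called P1, and from a proximal promoter, P2, farther into the gene, which give proteins with different first residues. CBFB has no such pair.

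The sequences of the RUNX promoters are shown first because the marks separated the distal from the proximal ones. They come from RefSeq (GRCh38.p14, the build family of the deposited hg38 positions), read 5′ to 3′ on the strand of the gene. Except for the distal promoter of RUNX3, they end at the last base before the start. Capitals mark the RUNX motif, searched as TGTGGT and TGCGGT on both strands, so that it also appears as ACCACA or ACCGCA. The proximal promoter of RUNX1 is chr21:34888700-34888949 on the minus strand, that of RUNX2 is chr6:45422025-45422274 on the plus strand and that of RUNX3 is chr1:24930277-24930526 on the minus strand.

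RUNX1 proximal: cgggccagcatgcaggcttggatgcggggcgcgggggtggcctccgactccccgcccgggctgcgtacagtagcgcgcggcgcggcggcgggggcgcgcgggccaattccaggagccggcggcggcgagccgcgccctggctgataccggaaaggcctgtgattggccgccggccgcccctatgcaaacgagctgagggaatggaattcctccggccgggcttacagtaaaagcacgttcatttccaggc
RUNX2 proximal: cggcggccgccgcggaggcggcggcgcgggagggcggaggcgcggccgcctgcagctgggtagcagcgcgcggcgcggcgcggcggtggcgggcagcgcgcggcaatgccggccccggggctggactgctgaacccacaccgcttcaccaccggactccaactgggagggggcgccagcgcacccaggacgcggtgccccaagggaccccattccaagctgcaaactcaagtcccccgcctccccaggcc
RUNX3 proximal: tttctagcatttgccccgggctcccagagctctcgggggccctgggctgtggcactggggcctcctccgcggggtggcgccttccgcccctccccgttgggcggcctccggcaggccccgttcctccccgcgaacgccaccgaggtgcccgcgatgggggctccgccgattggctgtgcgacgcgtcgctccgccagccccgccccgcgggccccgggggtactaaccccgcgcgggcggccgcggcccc

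The distal promoter of RUNX2 is chr6:45328080-45328329 on the plus strand. For RUNX3 the 122 bases outside the annotated gene are shown, chr1:24965139-24965260 on the minus strand. They end upstream of the listed start, position 24965010. The 2 motifs of this promoter, at bases -131 to -126 and -123 to -118, lie across and beyond that end, so no capitals appear. The distal start of RUNX1 was taken as the upstream end of the gene span, position 35049302 of chromosome 21.

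RUNX2 distal: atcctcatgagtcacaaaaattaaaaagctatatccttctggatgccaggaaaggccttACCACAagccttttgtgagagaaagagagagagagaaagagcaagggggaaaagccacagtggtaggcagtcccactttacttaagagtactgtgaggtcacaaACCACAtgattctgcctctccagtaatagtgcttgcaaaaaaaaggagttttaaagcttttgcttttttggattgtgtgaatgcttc
RUNX3 distal: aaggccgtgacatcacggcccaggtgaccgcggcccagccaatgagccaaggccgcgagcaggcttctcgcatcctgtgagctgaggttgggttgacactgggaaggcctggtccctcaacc

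The promoters shown differed in base composition. Counted over the 300 bases from 250 before to 50 after the start, the proximal promoters held 40 CpG dinucleotides for RUNX1, 39 for RUNX2 and 38 for RUNX3, against 2 for the distal promoter of RUNX2 and 15 for that of RUNX3. The median over all 34961 promoters of the table was 14. None of the 3 proximal promoters held the RUNX motif, which 19.6% of the 34961 held at least once. The distal promoter of RUNX2 held 5 matches, as many or more being present in 0.0114% of promoters, and that of RUNX3 held 2, reached by 2.33%. The longest run that these distal promoters had in common was 18 bases long and held 2 copies of the motif, with 2 bases between them:

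RUNX2 and RUNX3 shared run: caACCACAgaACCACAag

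It lies at chr6:45328344-45328361 in RUNX2, 14 to 31 bases after the start, and at chr1:24965126-24965143 in RUNX3, at bases -133 to -116 relative to the listed start. These were the only 2 of the 34961 promoters that held it on either strand. The run was found by comparing the 2 sequences after the marks were known, and a match of letters is not evidence of a bound site.

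At the starts, the distal and proximal promoters carried different marks in all 3 RUNX genes. Neither mark was called within 1 kb of any of the 3 distal starts. H3K4me3 was called at all 3 proximal starts, each time in a peak with a score of 3100, and H3K27ac at those of RUNX1 and RUNX3 but not RUNX2. The CBFB start carried both. Over 22132 starts of protein-coding genes in the promoter table, 56.6% had both marks within 1 kb, 12.3% had H3K4me3 only and 28.8% had neither, so each single state is a common one. The table holds 5 of the 7 starts described here; the distal start of RUNX1 and the start of CBFB are ends of the gene spans. The pairing of the states was then counted, a choice made after the values were seen. Of 1908 protein-coding genes with a start at least 10 kb inside the upstream end of the span, 285 (14.9%) had neither mark at the upstream end and H3K4me3 at the innermost start, among them RUNX1, RUNX2 and RUNX3, which are related genes and not independent cases. H3K4me3 was at both places in 504 of the 1908 genes, at the upstream end alone in 709, and 337 had neither mark at either place.

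Over the 22132 starts of protein-coding genes a high CpG content went with H3K4me3 at the start and not with H3K27ac alone. Starts with both marks had a median of 27 CpG in the 300 bases and starts with H3K4me3 only 25. The 502 starts with H3K27ac only had a median of 4 and starts with neither mark 5. The 3 proximal RUNX promoters, with 38 to 40, lay above the medians of both H3K4me3 groups. The distal promoter of RUNX3, with 15, lay above the median of the unmarked starts and that of RUNX2, with 2, below it. The part of base composition in the difference between distal and proximal promoters was not tested.

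**Figure D1:**
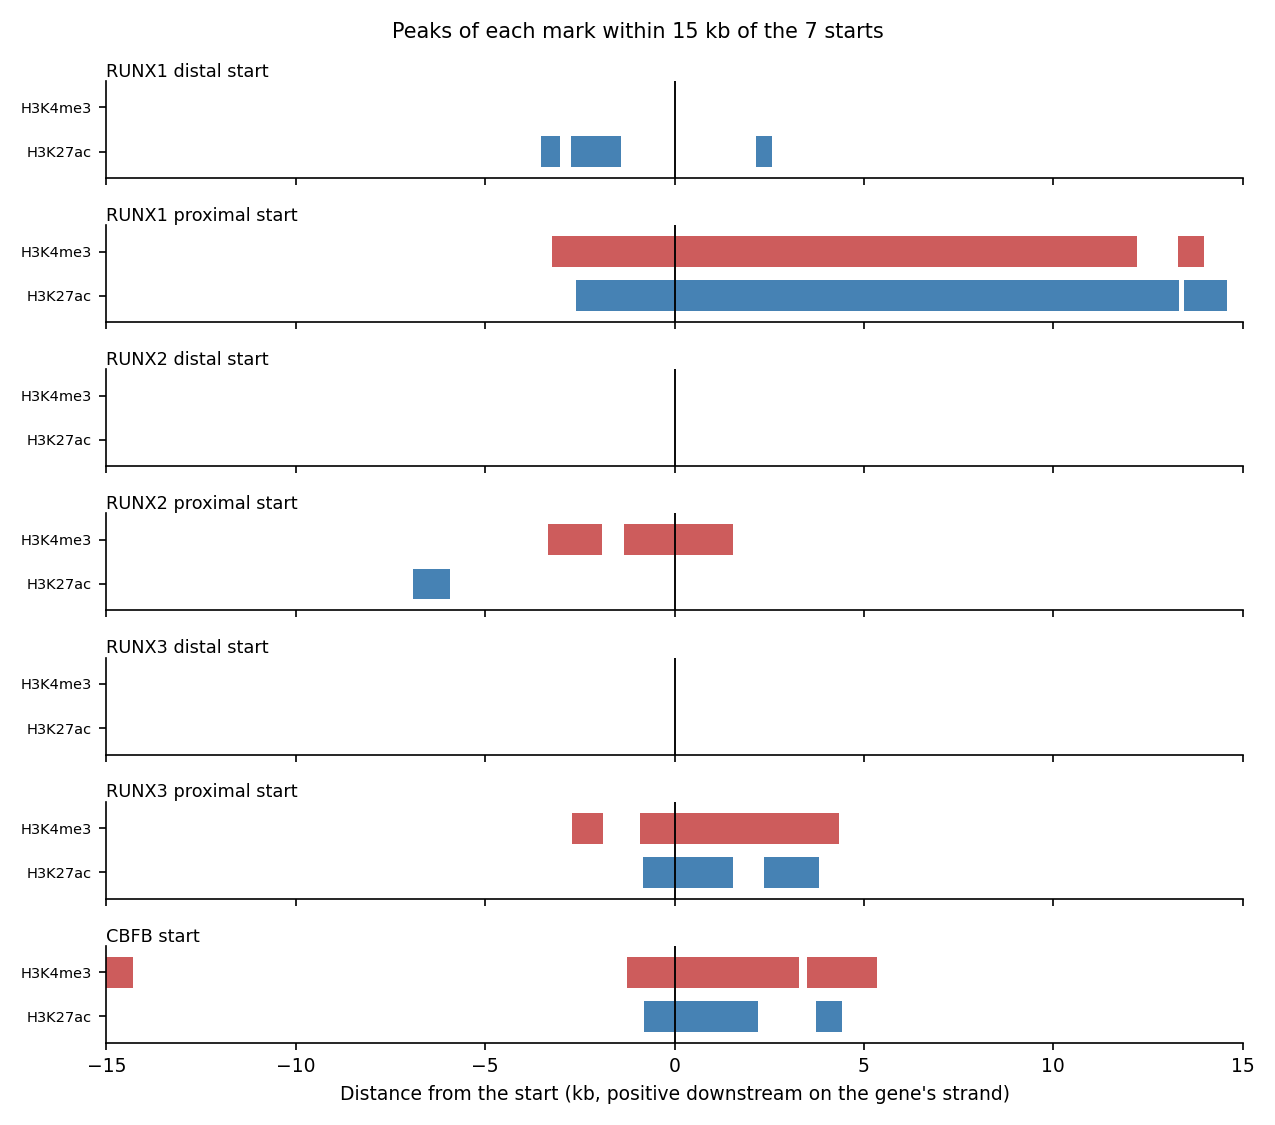
Peaks of H3K4me3 (red) and H3K27ac (blue) within 15 kb of each start, drawn to scale; the x axis is the distance in kb, positive in the direction of transcription, and each row is 1 start. No peak touches the 3 distal starts, H3K4me3 lies over the 3 proximal starts and the CBFB start, and the peaks at RUNX1 reach more than 12 kb into the gene.

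RUNX1 spans positions 34787801 to 35049302 of chromosome 21 on the minus strand, with its starts 160.6 kb apart. Its proximal start lay in the widest domains of both marks among the 4 genes. The H3K4me3 peak, at 34876497 to 34891939, was 15443 bp wide, and the H3K27ac peak, at 34875390 to 34891301, was 15912 bp wide; both scored 3100. By width the first ranked 26 of 32043 H3K4me3 peaks and the second 85 of 72894 H3K27ac peaks. Both were lopsided. H3K4me3 reached 3240 bp upstream of the start and 12202 bp into the gene, and H3K27ac 2602 bp upstream and 13309 bp into the gene. Of 11403 protein-coding genes with H3K4me3 at a listed start, 0.184% had a peak there as wide or wider, and the median was 3415 bp; for H3K27ac the share was 0.348% of 9784 genes and the median 1974.5 bp.

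Downstream of the proximal start the RUNX1 gene was densely acetylated, and between its starts much less so. Over all protein-coding genes, H3K27ac peaks covered a median of 3.74% of the whole span and H3K4me3 peaks 4.69%. The 100.9 kb from the proximal start to the gene's end held 16 H3K27ac peaks that covered 44.5% of it, and 5 H3K4me3 peaks that covered 17.8%. The 160.6 kb between the starts held 4 H3K27ac peaks over 3.19% and 1 H3K4me3 peak over 2.02%, and that H3K4me3 peak and 1 of the 4 were the edges of the domain at the proximal start. The other 3 H3K27ac peaks there were 495, 1617 and 413 bp wide with scores of 33.3, 94.99 and 36.9. The last of these lay 2150 bp downstream of the distal start, and a peak of 1330 bp with a score of 66.2 lay 1415 bp upstream of it. The closest H3K4me3 peak to the distal start was 155142 bp away, outside the gene. RUNX1-IT1, a long noncoding RNA gene between the starts, had neither mark at its ends.

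The internal H3K27ac peaks of RUNX1 included some of the highest scores in the list. A peak of 4717 bp, 19743 to 24459 bp downstream of the proximal start, scored 3100, the only H3K27ac peak in the gene besides the promoter domain to do so. A peak of 5238 bp at 34793379 to 34798616, in the last part of the gene, scored 2403, and a peak of 2439 bp at 34843518 to 34845956 scored 1199. Next came a pair of 4279 and 2791 bp with scores of 507 and 356. All 3 of the highest overlapped H3K4me3 peaks, but these were weak for their list, with scores of 273, 34.4 and 109 against a median of 590. In all, 14 of the 19 H3K27ac peaks that touched the gene overlapped no H3K4me3. Only 34.8% of H3K27ac peaks in the whole list overlapped H3K4me3, so this is the usual state. Some of the 14 lay less than 100 bp from a peak that did overlap it. RUNX1-AS1, an antisense long noncoding RNA gene inside RUNX1, starts within an H3K27ac peak of 1253 bp that scored 51.4, with no H3K4me3; its far end lies in the proximal domain of RUNX1.

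Joined across gaps shorter than the stitching distance customary for super-enhancers, the H3K27ac peaks around the proximal start formed a cluster of 10 peaks over 56631 bp, of which 33248 bp were covered. It ranked 218 of 34797 clusters in the genome by covered length. A second cluster in the gene, of 6 peaks and 14213 bp covered, ranked 1205. The best placed of the clusters that touched another member ran from the far end of CBFB across the start of PHAF1, a neighbouring gene. Within CBFB it held a peak of 547 bp with a score of 45.5, and it ranked 6610. That order depended on the measure. Ranked by summed score, the second RUNX1 cluster was at 1934, the best placed of the other members was the cluster at the CBFB start, at 2948, and the one at the far end of CBFB was at 11152. Downstream of RUNX1, 7 further H3K27ac peaks lay in the 100 kb flank and covered 11.7% of it. The strongest, 3628 bp wide with a score of 1111 at 34689489 to 34693116, lay inside CLIC6, a chloride channel gene with neither mark at its ends. No H3K4me3 peak lay in either flank of RUNX1.

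**Figure D2:**
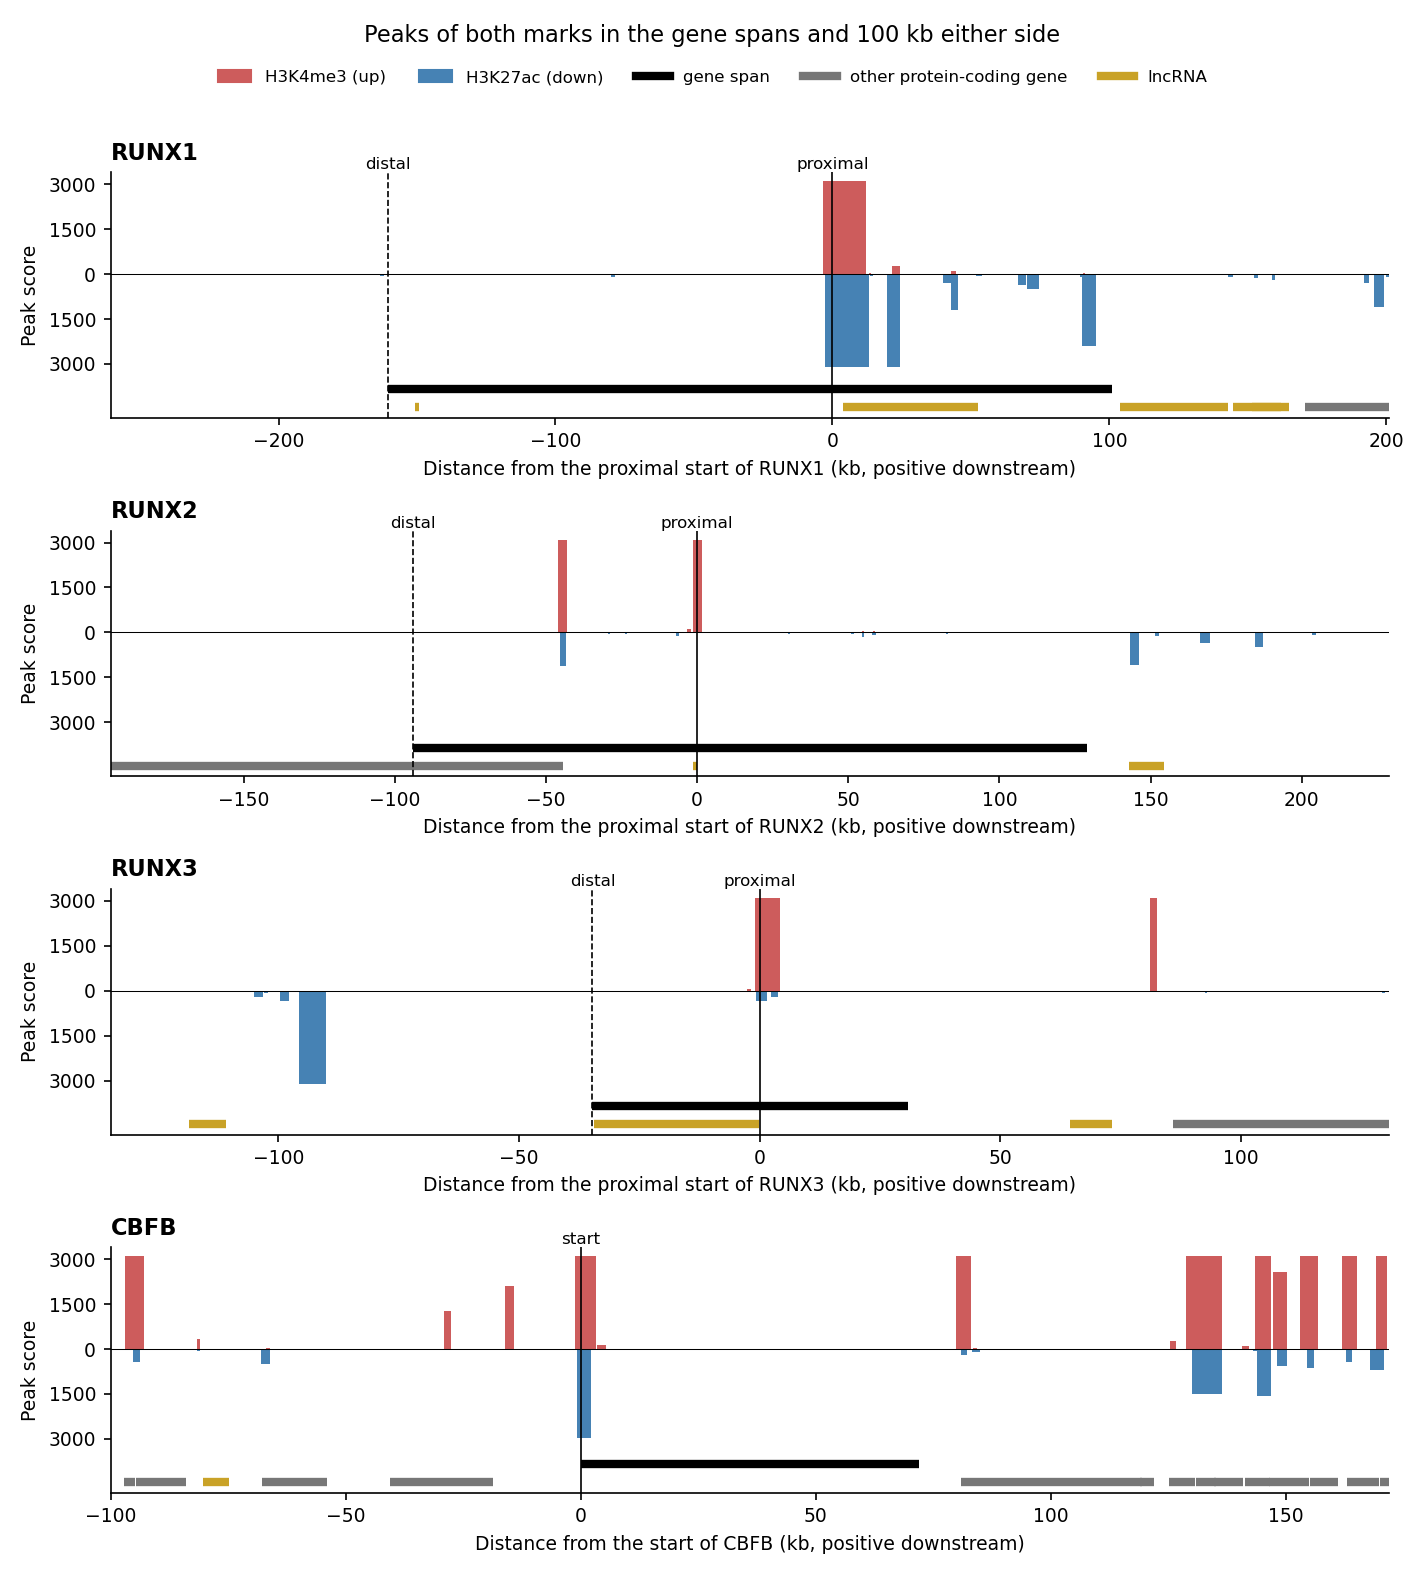
Peak scores of H3K4me3 (red, upward) and H3K27ac (blue, downward) in the 4 gene spans and 100 kb either side; the x axis is the distance from the proximal start (for CBFB, the start) in kb, positive downstream, and bars narrower than 0.6 kb are drawn at that width. H3K27ac fills the RUNX1 gene downstream of its proximal start, RUNX2 has H3K4me3 without H3K27ac at the proximal start, RUNX3 has a block of H3K27ac upstream of its distal start, and the CBFB flanks hold peaks of other genes.

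RUNX2 had an H3K4me3 peak at its proximal start, and no H3K27ac peak was called there. The gene spans positions 45328330 to 45551082 of chromosome 6 on the plus strand, and its starts are 93.9 kb apart. At the proximal start an H3K4me3 peak of 2874 bp, at 45420949 to 45423822, scored 3100 and reached 1326 bp upstream and 1547 bp downstream. A second one of 1436 bp with a score of 128 lay just upstream. Among genes with H3K4me3 at a listed start, 64.5% had a peak as wide as that of RUNX2 or wider. The nearest H3K27ac peak, 5935 bp upstream, was 968 bp wide and scored 107. LOC124901324, a long noncoding RNA gene on the opposite strand, starts 59 bp from the proximal start, so that the H3K4me3 of the 2 genes cannot be told apart.

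The marks elsewhere in RUNX2 were mostly weak or belonged to a neighbour. SUPT3H, a subunit gene of the SAGA transcription coactivator complex that overlaps the first part of RUNX2 on the opposite strand, starts between the RUNX2 starts. Its start had an H3K4me3 peak of 3244 bp with a score of 3100 and an H3K27ac peak of 2016 bp with a score of 1112. The other 8 H3K27ac peaks in the RUNX2 span scored 36.3 to 144. From the proximal start to the end of RUNX2, peaks covered 3.18% of the sequence with H3K27ac, against 44.5% in RUNX1. Neither mark was called in the 100 kb upstream of RUNX2, which lie within SUPT3H. The distal start was 47803 bp from the nearest H3K4me3 and 48596 bp from the nearest H3K27ac peak, both those of SUPT3H.

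Downstream of RUNX2, H3K27ac returned without H3K4me3. The 100 kb beyond its end held 7 H3K27ac peaks that covered 12.3%, and no H3K4me3 peak. The strongest, of 2675 bp at 45565601 to 45568275, scored 1071 and lay at the far end of RUNX2-AS1, a long noncoding RNA gene. Peaks of 3179 and 2454 bp farther on scored 363 and 497. They lay 166327 and 184682 bp downstream of the proximal start at their nearer edges, and whether they act on RUNX2 was not measured.

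RUNX3 carried both marks at the proximal start, and a block of H3K27ac lay upstream of the gene. RUNX3 spans positions 24899511 to 24965138 of chromosome 1 on the minus strand, with starts 34.7 kb apart. The proximal start lay in an H3K4me3 peak of 5241 bp at 24925947 to 24931187, with a score of 3100, that reached 911 bp upstream and 4329 bp into the gene. Of genes with H3K4me3 at a listed start, 15.9% had one as wide or wider. H3K27ac there came as 2 peaks within the H3K4me3 peak, of 2374 bp over the start with a score of 346 and of 1447 bp farther in with a score of 195. Both scores were above the list's median of 65.0, and 38.6% of genes with H3K27ac at a listed start had a peak as wide as the first or wider. No other H3K27ac peak lay in the gene. RUNX3-AS1, an antisense long noncoding RNA gene, starts 181 bp upstream of the proximal start and shares both peaks with it.

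The distal start of RUNX3 was 32018 bp from the nearest H3K4me3 peak and 33914 bp from the nearest H3K27ac peak, both beside or over the proximal promoter. In the flank upstream of it, 4 H3K27ac peaks lay between 25020365 and 25035343 and covered 10.1% of the 100 kb, with no H3K4me3. The first was 5606 bp wide, scored 3100 and began 55355 bp upstream of the distal start; 2.54% of all H3K27ac peaks were as wide or wider. It holds MIR4425, a microRNA gene. The others scored 330, 66.9 and 214. Joined, the 4 ranked 2039 of 34797 H3K27ac clusters, while the 2 peaks at the proximal start ranked 7127. Downstream, a peak of H3K4me3 of 1537 bp with a score of 3100 lay 81057 bp from the proximal start, more than 1 kb from any listed gene end and without H3K27ac.

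CBFB, the beta subunit gene, had a single marked start of ordinary width. It spans positions 67029149 to 67101058 of chromosome 16. The promoter table gave no strand for it, and from general knowledge it is read toward higher coordinates. Its start lay in an H3K4me3 peak of 4548 bp at 67027883 to 67032430 with a score of 3100 and in an H3K27ac peak of 2997 bp at 67028350 to 67031346 with a score of 2971. H3K4me3 reached 1266 bp upstream and 3281 bp into the gene. Peaks as wide or wider were found at 24.9% of genes with H3K4me3 at a listed start and 25.9% of those with H3K27ac. Just inside the gene, 3499 bp from the start, came an H3K4me3 peak of 1840 bp with a score of 145 and over it an H3K27ac peak with a score of 47.1. The rest of CBFB held 2 H3K27ac peaks, with scores of 33.3 and 45.5.

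The flanks of CBFB hold many other genes, and most of the peaks there lay near a start or end of these genes. Of 16 annotated neighbours 13 had both marks at a start or end, among them CES2, a carboxylesterase gene, TRADD, an adaptor of tumour necrosis factor signalling, and E2F4, a cell cycle transcription factor. Of the 16 H3K4me3 peaks in the CBFB flanks 14 lay within 1 kb of a start or end of another gene, and so did 13 of the 19 H3K27ac peaks. Around the RUNX genes these counts were 2 of 11 H3K27ac peaks for RUNX1, 1 of 7 for RUNX2 and 1 of 7 for RUNX3.

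**Figure D3:**
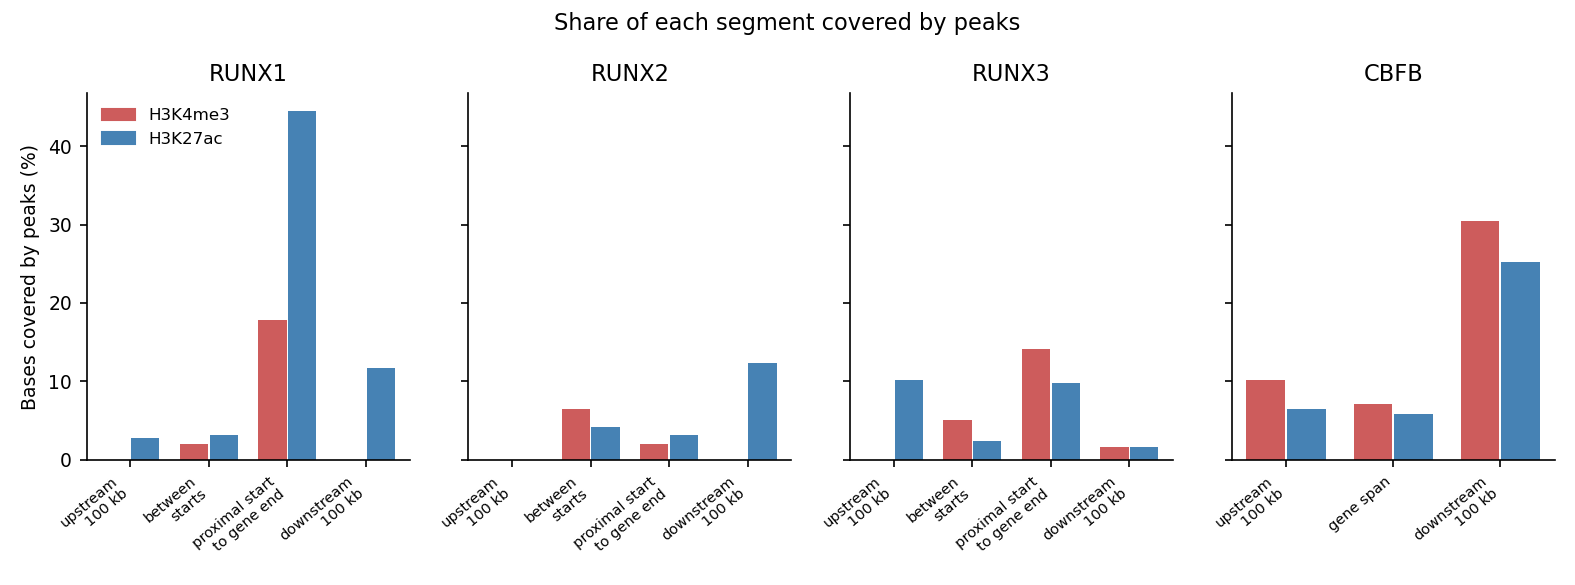
Percent of bases covered by peaks of H3K4me3 (red) and H3K27ac (blue) in each part of the 4 windows, ordered along the direction of transcription; bars start at 0. The part of RUNX1 from its proximal start to its end has 44.5% covered by H3K27ac, the highest bar, and the 100 kb upstream of RUNX2 has none of either mark.

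Over the 4 windows there were 78 H3K27ac and 31 H3K4me3 peaks, of which 34 and 14 touched the genes. The shares of sites with both marks differed between the loci. Of the H3K27ac peaks, 16.7% of 30 overlapped H3K4me3 in the RUNX1 window (exact Clopper-Pearson 95% interval 5.64 to 34.7, for counting error only), 18.8% of 16 for RUNX2 (4.05 to 45.6), 22.2% of 9 for RUNX3 (2.81 to 60.0) and 69.6% of 23 for CBFB (47.1 to 86.8). In the whole list 34.8% did. The intervals of the 3 RUNX windows overlap one another and those of RUNX2 and RUNX3 include the list's value. They treat neighbouring peaks as independent, although merging peaks less than 500 bp apart turned the 30 of RUNX1 into 20. The intervals are therefore not used to set a window, such as that of RUNX1, apart from the list. Over all 4, the share was 33.3% (23.1 to 44.9).

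Coverage of the whole spans lay within the interquartile range of all protein-coding genes, except for H3K27ac in RUNX1. Genes were not matched for length, and the values of RUNX2 include the peaks at the SUPT3H start. H3K27ac covered 19.1% of RUNX1, 3.60% of RUNX2 and 5.82% each of RUNX3 and CBFB, against a median of 3.74% over the 19974 protein-coding genes (interquartile range 0 to 13.0). As much or more was covered in 18.4% of genes for RUNX1 and in 41.3 to 50.7% for the others. H3K4me3 covered 8.13%, 3.85%, 9.27% and 7.12% of RUNX1, RUNX2, RUNX3 and CBFB, against a median of 4.69% (0 to 14.5).

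Genes that work with RUNX proteins, or that they are known to act on, were read from 6 lists with 77 different genes. A mark was counted where a peak lay within 1 kb of a listed start or either end of the gene; over all 19974 protein-coding genes 60.3% had both marks by this count, 11.8% H3K4me3 only, 2.89% H3K27ac only and 25.0% neither. All 15 coactivators and modifying enzymes had both, including the acetyltransferase genes EP300, CREBBP, KAT6A and KAT6B, with H3K4me3 scores of 3100 and H3K27ac scores of 3100, 764, 1071 and 792. Of 14 corepressors 12 had both, among them TLE1, TLE2, TLE3 and TLE4, Groucho-type proteins that bind the last residues of RUNX proteins. At TLE1 the H3K4me3 peak was 8744 bp wide and the H3K27ac peak 5843 bp. The exceptions were RUNX1T1 and CBFA2T3, which are partners of RUNX1 in leukaemia fusions and had H3K4me3 only, with scores of 2993 and 722. Each held 1 H3K27ac peak farther inside the gene, away from starts and ends.

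Partner transcription factors were mixed, with 13 of 19 marked by both. GATA2, SPI1, CEBPA and SMAD1 were in this state, although at SPI1, a myeloid factor gene, both peaks were weak, with scores of 128 for H3K4me3 and 31.6 for H3K27ac. SMAD1, which carries bone morphogenetic protein signals, had peaks of 4644 bp (H3K4me3) and 3254 bp (H3K27ac), both with a score of 3100. ETS1 and LEF1 had H3K4me3 only, and the widest such peak at a start or end of ETS1 scored 39.6. Counted over the gene and 1 kb either side, ETS1 had 4 H3K4me3 peaks and LEF1 had 2. Farther inside the gene, away from starts and ends, ETS1 held 5 H3K27ac peaks and LEF1 held 1. FOXP3 had H3K27ac only, with a score of 54.6. The blood factors FLI1, GATA1 and TAL1 had neither mark at starts or ends. Inside the gene or within 1 kb of it, FLI1 had 3 H3K4me3 peaks and 1 H3K27ac peak, and TAL1 had 1 H3K4me3 peak.

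The number of genes with both marks differed between the lists of epithelial, blood and bone targets. Over all protein-coding genes the share with both marks was 60.3%. Of 10 epithelial targets 8 had both marks, including ELF5, the luminal progenitor factor, ESR1, SNAI2 and CDH1. The other 2, the cell cycle inhibitor gene CDKN1A and the receptor gene TGFBR1, had H3K4me3 only. Each of these held 1 H3K27ac peak farther inside the gene. At ELF5 the peaks were 6372 bp of H3K4me3 and 5550 bp of H3K27ac, the latter with a score of 2757; at ESR1 and SNAI2 the H3K27ac scores were 110 and 34.7. Of 10 blood targets 1 had both, the integrin gene ITGB2, where the widest H3K27ac peak was 18908 bp and the H3K4me3 peak scored 103. CSF1R, MPO, CSF2 and IL3 were among 5 with neither, GFI1, CD4 and PF4 had H3K4me3 only, and ELANE had H3K27ac only. Of 10 bone targets 2 had both, SP7, an osteoblast factor that acts after RUNX2 in bone formation, and VEGFA, which is active in many tissues. At SP7 the H3K27ac score was 198. The bone matrix genes BGLAP, SPP1 and IBSP had neither mark, and ALPL, IHH and COL1A1 had H3K4me3 only. Farther inside the gene, away from starts and ends, ALPL held 6 H3K27ac peaks and COL1A1 held 1. COL10A1 and MMP13 had H3K27ac peaks with scores of 34.4 and 30.6. The lists were chosen with earlier results of these data known, and the difference between them was not tested. The peaks say nothing on whether a RUNX protein binds these genes.

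**Figure D4:**
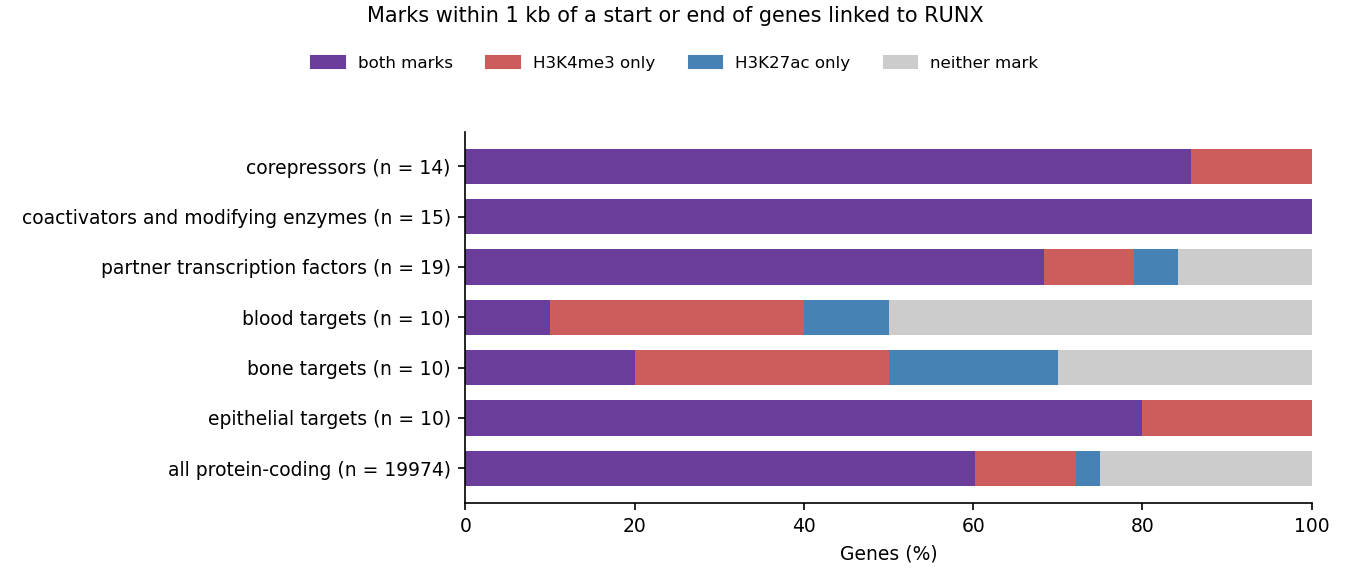
Percent of genes in each list with both marks (purple), H3K4me3 only (red), H3K27ac only (blue) or neither (grey) within 1 kb of a start or end; the lowest bar is all 19974 protein-coding genes. The coactivator bar is all purple, and the blood and bone target bars have the smallest purple parts, 1 and 2 genes of 10.

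The cell type on the label was checked against marker genes. All 4 epithelial markers (EPCAM, CDH1, KRT8 and KRT18) had both marks, as did the basal keratin gene KRT5, while KRT14 had H3K27ac only with a score of 47.3. The 2 haematopoietic markers (PTPRC and CD3E) and the 2 fibroblast markers (COL1A2 and PDGFRB) had neither. By the same count 60.3% of all protein-coding genes had both marks and 25.0% had neither. The H3K4me3 peaks of KRT8 and KRT18 had the same width, 4446 bp, and score, 3100, so these 2 genes may not be separate observations.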

How the data were processed

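Chromatin immunoprecipitation and sequencing gave 1 library per mark and an input from HCC1599 cells. Formaldehyde cross-linking was followed by sonication and micrococcal nuclease, per the labels' protocols; the enzyme cuts between nucleosomes, and this can set where peaks end or break. The submitters' processing notes name Bowtie2, MACS 1.4 and hg38; parameters are not given in the sources used here. The authors deposited 1 peak list per mark with a score per peak. The unit of the score is not stated, and it is used only within a list. The input was not analysed here.

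Only peaks of the autosomes and X were kept, with positions counted from 1. Windows were the RefSeq gene spans and 100 kb either side. Starts came from a RefSeq promoter table (34961 promoters on these chromosomes); where it held none, the upstream end of the span was used. A mark was at a start where a peak overlapped the 1 kb either side. The table of genes gave no exons. The members and lists were chosen with earlier results of these data known. Named genes are the members, covered neighbours, up to 6 of the smaller states of each list and the first 4 of the largest; the counts of paired starts, the shared 18 bases and the peaks without a gene were chosen after their values were seen. Some planned list and marker genes are not reported here. A planned comparison of RUNX protein sequences was not made here. Python 3.11.15, numpy 2.4.6, pandas 2.3.3, scipy 1.17.1 and matplotlib 3.10.9 were used; the overlap count differed from that of bedtools 2.31.1 by 0, and in a test on simulated data the marks planted at 200 of 19974 genes were all found.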

Additional observations from a re-analysis of the deposited data

How the results depend on the processing

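The marks at the 7 starts changed little with the settings. With scores of at least 50 or 100 and with 500 bp either side, 3 starts had both marks, 1 had H3K4me3 only and 3 had neither, as reported; with 2.5 kb either side, 2 had neither, because the H3K27ac peaks 1415 bp upstream and 2150 bp downstream of the distal start of RUNX1 were then counted. Listed genes with both marks numbered 48 to 59 against 50. The share of H3K27ac peaks on H3K4me3 in the windows was 26.9% with 50% of a peak covered and 42.9% with scores of at least 100, against the reported 33.3%. The 34.8% of the whole list holds for the reported setting only. Counts of H3K27ac peaks depended on the threshold and window: 78 became 35 with scores of at least 100, 51 with at least 50, 45 with flanks of 50 kb and 34 in the gene spans only. In single genes, 18 of these alternatives moved a count of peaks by over 1.5 times and 22 did not. The 31 H3K4me3 peaks became 18 with flanks of 50 kb and 14 in the spans only. With flanks of 50 kb, covered bases fell to 49509 from 83210 for H3K4me3 and to 82679 from 136208 for H3K27ac, by construction. The largest RUNX1 cluster ranked 218 by covered length, 188 with joins under 5 kb and 410 by summed score; the cause was not tested. With joins under 5 kb the largest RUNX1 cluster broke up, and the part ranked 188 of 46139 held 5 peaks with 24886 bp covered. The second RUNX1 cluster broke into 3, the best of them ranked 2689. By summed score the cluster at the proximal start of RUNX3 ranked 9529 against 7127, and that at the SUPT3H start in RUNX2 6367 against 12975. No paired analysis was possible because each mark has 1 library. Depth and local copy number of HCC1599 could not be read from the peak lists, and starts absent from the promoter table were missed.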

Other observations

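Besides the H3K4me3 peak downstream of RUNX3, 1 other strong H3K4me3 peak of the windows lay more than 1 kb from every listed start and gene end and on no H3K27ac peak. It was 1829 bp wide, at 67013023 to 67014851 of chromosome 16, 14298 bp upstream of CBFB, and scored 2094. Between RUNX1 and CLIC6, the long noncoding RNA genes LINC00160, LOC107985515 and LINC01426 had H3K27ac at an end, with scores of 137, 105 and 105 (the latter 2 genes share a peak), and no H3K4me3.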
